A study of Mus musculus with 3 samples.

Results

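The proteasome genes examined here are 38 subunit genes of the protein-degrading proteasome of the mouse, chosen by symbol from a list and found among the 54331 features of the deposited table. They form 6 groups by role, with 7 genes of the alpha ring (Psma), 7 of the constitutive beta ring (Psmb1 to Psmb7), 3 immune beta genes (Psmb8, Psmb9 and Psmb10), 6 base ATPases (Psmc), 11 regulatory non-ATPases (Psmd) and 4 activator subunits (Psme). All 38 passed the filter on low values, a mean of at least 10 normalized counts, in every case with room to spare, since the lowest value of any member in any library was 2776. RNA was sequenced from RAW 264.7 cells, a mouse macrophage line from a male of the BALB/c strain, in 3 libraries (the source field of the labels writes RAW 267.4, the protocols RAW 264.7). Every library had 5 h of LPS at 100 ng/mL, a bacterial ligand that activates macrophages through TLR4, so unstimulated cells are not analysed here. The control library, labelled wild-type, carried a control shRNA. The other libraries, both labelled GIV-depleted, carried shRNA 1 or shRNA 2 against GIV (Girdin), the protein product of Ccdc88a, a large scaffold that acts on G proteins. According to its title, the series is about how GIV dampens TLR4 signalling.

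The proteasome is a barrel of stacked rings that cuts proteins tagged with ubiquitin into peptides. Outer rings of alpha subunits gate the barrel, inner rings of beta subunits hold the cutting sites, and a regulatory cap binds, unfolds and feeds in the substrate. In cells exposed to interferon, the immune beta subunits take the places of the constitutive catalytic ones, Psmb8 for Psmb5, Psmb9 for Psmb6 and Psmb10 for Psmb7. The resulting immunoproteasome is known for making peptides that fit MHC class I molecules, and macrophages are among the cells that carry it. Psme1 and Psme2 form an interferon-induced activator that caps the barrel.

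The authors' values are normalized counts, and differences are given on the log2(value + 1) scale as a GIV-labelled library minus the control. With 1 control library there is no replicate error for the control. Both differences of a gene subtract this same library, so an error in it moves both, and their agreement is not independent. The limma fit over all 13877 features with a mean of at least 10 uses the spread between the libraries with shRNA 1 and shRNA 2, and assumes that the control varies alike. The series' design text calls these libraries biological replicates, although each carries another shRNA. The p-values thus rest on the spread between these samples, which may be technical. In limma, each gene's spread is also drawn toward that of tested features of like level. For Psmd3, whose libraries with shRNA 1 and shRNA 2 differed by 0.010, the SE was still 0.12. Totals ran from 47349097 to 49756670 normalized counts per library, and counting error alone would give a log2 difference of any member an SE of at most 0.035. Ccdc88a, the targeted gene, had 2580 normalized counts in the control, 1734 with shRNA 1 and 2561 with shRNA 2. The library labelled shRNA 2 therefore kept 99.3% of the control's Ccdc88a transcript level, although it is labelled GIV-depleted. These values are RNA and do not give the level of GIV protein. Each direction shared by both GIV-labelled libraries rests partly on the library labelled shRNA 2. All 8 macrophage markers examined were abundant, from 6272 upward in every library, while 16 markers of other cell types stayed under 100 and 8 of these were at 0 throughout. The macrophage markers summed to 452772 in the control, 347866 with shRNA 1 and 368526 with shRNA 2, a difference carried mostly by Lyz2, with 199781, 121997 and 138145. Of the 8, 4 were lower in both GIV-labelled libraries (Cd68, Csf1r, Lyz2 and Fcgr1), beside 35.2% of all tested features. Ptprc was higher in both, and 3 of these markers were not on one side. Their part in the results was not tested. In bulk RNA, fewer cells of a type and less RNA per cell cannot be told apart.

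Transcripts of the 3 immune beta subunits were the lowest-lying of all 38 members relative to the control, at mean differences between -0.50 and -0.48, and they were lower in both GIV-labelled libraries. The constitutive beta ring lay slightly below the control, the alpha ring and the regulatory cap lay near it, and the activator group was divided, with Psme1 and Psme2 below and Psme3 and Psme4 above. No member passed an adjusted p of 0.05 in limma, and neither did any other feature (0% of 13877), the lowest adjusted p over all features being 0.055. At an unadjusted p under 0.05, limma gave 963 features of 13877, and 966 without the mean-variance trend, again with 0 after adjustment. Among members, 2 of 38 were lower at an unadjusted p under 0.05, Psmb8 and Psmb10, beside 2.42% of all tested features.

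Counted over the whole complex, 21 of 38 members were lower than the control in both GIV-labelled libraries, beside 35.2% of all tested features. Another 8 were higher in both, beside 34.9%, and 9 were not on one side. Among the 6448 features with a mean of at least 1000, a range that holds every member, 35.0% were lower in both and 36.9% higher in both. By at least 1.2-fold, 3 of 38 members were lower in both libraries, beside 11.1% of all tested features and 6.47% of those with a mean of at least 1000. These were the 3 immune beta genes. No member was higher by at least 1.2-fold in both, beside 12.2% of tested features. The median difference over the 38 members was -0.06, against -0.00 over all tested features. Members other than the immune beta genes lay on both sides of the control, from -0.30 to 0.24. For 16 of the 38 members the mean difference was smaller than the difference between the libraries with shRNA 1 and shRNA 2.

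**Figure D1:**
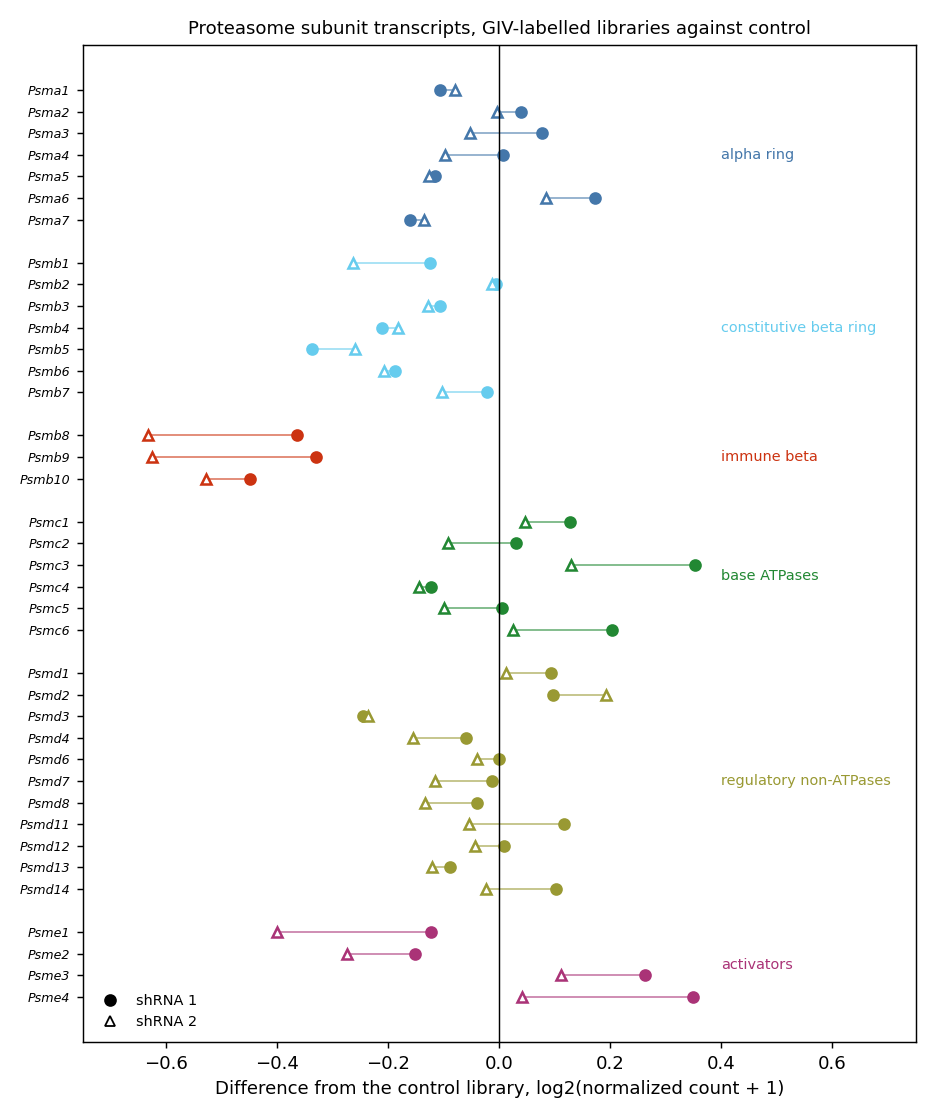
Difference of each of the 38 subunit transcripts from the control library on the log2(normalized count + 1) scale, for shRNA 1 (filled circles) and shRNA 2 (open triangles), with 1 library per symbol and the groups in colour. Psmb8, Psmb9 and Psmb10 lie furthest to the left for shRNA 2, from -0.63 to -0.53, while for shRNA 1 Psmb5 at -0.34 lies just left of Psmb9 at -0.33.

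Psmb8, the immune subunit with chymotrypsin-like activity, had 12716 normalized counts in the control, 9877 with shRNA 1 and 8200 with shRNA 2. Both GIV-labelled libraries lay below the control, at 77.7% and 64.5% of it. On the log2 scale this gave a mean of -0.50 (SE 0.17), and limma's adjusted p was 0.69. Psmb9, the immune counterpart of Psmb6, had 4279 in the control, 3403 with shRNA 1 and 2776 with shRNA 2. Its order of libraries was the same, at 79.5% and 64.9% of the control. Its mean log2 difference was -0.48 (SE 0.18; limma adjusted p = 0.73). Psmb10, the immune subunit with trypsin-like activity, had 9122, 6682 and 6323 in the same order of libraries. Here the GIV-labelled libraries lay close together, at 73.2% and 69.3% of the control. Their mean difference of -0.49 (SE 0.12) had the lowest adjusted p among members, 0.59 in limma. For all 3 genes, though least for Psmb10, the greater shortfall was in the library labelled shRNA 2, which had nearly as much Ccdc88a transcript as the control. Log2 differences of the 3 genes in that library ran from -0.63 to -0.53, and in the library labelled shRNA 1 from -0.45 to -0.33.

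Psmb5 came next in the order of mean differences at -0.30, a gap no larger than the SE of Psmb9, followed by Psme1 at -0.26 and Psmd3 at -0.24. At the other end stood Psmc3 at 0.24, Psme4 at 0.19 and Psme3 at 0.19. No member differed from its neighbour in this order by more than the SE of either, except that Psmb9 stood further from Psmb5 than the SE of Psmb5.

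Psmb8 and Psmb9 both lie in the MHC region of chromosome 17 (GRCm38), Psmb8 from 34197721 to 34201454 on the plus strand and Psmb9 from 34181987 to 34187764 on the minus strand. Psmb10 lies elsewhere, on chromosome 8 from 105935735 to 105938444, minus strand. Tap1, which encodes a transporter of class I peptides, lies between Psmb9 and Psmb8, and its annotated 5′ end overlaps that of Psmb9 by 212 bases on the opposite strand. No source used here gives the strand setting of the authors' counting, so reads from that overlap could count for either gene. The values of Tap1 itself were 23768 in the control, 17564 with shRNA 1 and 14131 with shRNA 2, the latter at 73.9% and 59.5% of the control. An antisense gene overlapping Psmb10, Gm16156, had at most 0.964 in any library.

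Start-site windows are shown for the 3 immune beta genes because their transcripts lay lowest together, and for Psme1 and Psmb5, which followed in the order. Each runs from 250 bases before to 50 bases after the RefSeq start site, in the direction of transcription (RefSeq, GRCm38.p6), and capitals mark motif matches.
Psmb8 (chr17:34197945-34198244, plus strand): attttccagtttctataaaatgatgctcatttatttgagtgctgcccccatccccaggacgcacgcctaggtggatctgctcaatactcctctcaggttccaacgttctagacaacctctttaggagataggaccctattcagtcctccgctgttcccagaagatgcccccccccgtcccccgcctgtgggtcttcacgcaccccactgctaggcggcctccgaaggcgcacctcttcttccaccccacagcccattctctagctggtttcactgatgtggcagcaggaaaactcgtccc
Psmb9 (chr17:34187281-34187580, minus strand): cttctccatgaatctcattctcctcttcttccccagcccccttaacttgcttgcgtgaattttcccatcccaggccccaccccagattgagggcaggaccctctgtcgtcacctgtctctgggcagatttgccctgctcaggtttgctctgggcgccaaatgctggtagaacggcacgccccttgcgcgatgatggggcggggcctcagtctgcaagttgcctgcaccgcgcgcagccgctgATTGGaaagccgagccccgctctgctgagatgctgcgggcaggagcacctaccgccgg
Psmb10 (chr8:105938343-105938642, minus strand): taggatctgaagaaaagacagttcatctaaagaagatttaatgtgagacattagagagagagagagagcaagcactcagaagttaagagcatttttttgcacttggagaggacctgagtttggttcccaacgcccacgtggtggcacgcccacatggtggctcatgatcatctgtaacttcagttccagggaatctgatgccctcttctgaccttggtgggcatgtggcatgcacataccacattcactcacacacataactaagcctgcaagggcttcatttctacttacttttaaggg
Psme1 (chr14:55578244-55578543, plus strand): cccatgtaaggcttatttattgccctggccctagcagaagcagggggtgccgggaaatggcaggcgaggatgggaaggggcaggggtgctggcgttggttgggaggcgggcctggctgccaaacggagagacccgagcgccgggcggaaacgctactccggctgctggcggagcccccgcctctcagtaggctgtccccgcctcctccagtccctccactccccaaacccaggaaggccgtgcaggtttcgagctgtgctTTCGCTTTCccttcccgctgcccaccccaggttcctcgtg
Psmb5 (chr14:54617946-54618245, minus strand): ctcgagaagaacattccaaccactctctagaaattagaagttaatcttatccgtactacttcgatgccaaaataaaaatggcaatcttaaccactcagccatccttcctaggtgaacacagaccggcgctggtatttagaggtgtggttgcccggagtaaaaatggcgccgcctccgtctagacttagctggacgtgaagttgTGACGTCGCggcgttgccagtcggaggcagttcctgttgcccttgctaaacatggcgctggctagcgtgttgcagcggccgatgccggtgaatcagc

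The motifs searched, on both strands, were GAAANNGAA (the core of the interferon-stimulated response element), TGACNNNGC (the antioxidant response element core, bound by NRF1 and NRF2) and CCAAT (bound by NF-Y). RefSeq windows were found for 32 of the 38 members. GAAANNGAA occurred in the windows of 5 of these 32 members, namely Psmb3, Psmb4, Psmc2, Psmd4 and Psme1, and in 8.56% of all 32851 windows. In the Psme1 window it starts 10 bases after the start site. TGACNNNGC was found for 5 members, Psmb5, Psmb6, Psmc6, Psmd12 and Psme4, and in 12.4% of all windows. CCAAT was found for 12 members, Psmb9 among them, and in 37.4% of all windows. The Psmb8 and Psmb10 windows hold none of these motifs, and the RefSeq start sites of Psmb8, Psmb9 and Psme1 lie 371 to 474 bases inside the GENCODE gene ends, so other start sites fall outside the windows. A match or its absence describes these letters only.

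The constitutive counterparts of the immune subunits also stood below the control in both GIV-labelled libraries, by less. Psmb5, the constitutive chymotrypsin-like subunit, had 3902 normalized counts in the control, 3087 with shRNA 1 and 3260 with shRNA 2. It lay furthest below the control of any constitutive core subunit, at -0.30 (SE 0.13; limma adjusted p = 0.73). Psmb6, the caspase-like subunit, had 9296, 8165 and 8055, a difference of -0.20 (SE 0.12). Psmb7, the trypsin-like subunit, had 9493, 9351 and 8834, a difference of -0.06 (SE 0.12), which is within its SE.

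**Figure D2:**
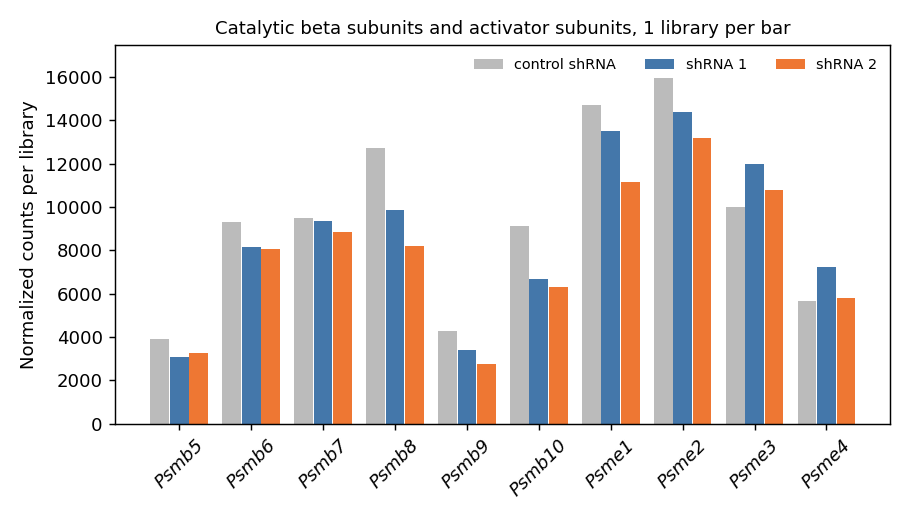
Normalized counts of the constitutive and immune catalytic beta subunits and of the activator subunits, with 1 bar per library from 0 upward. Psmb8 stands at 12716, 9877 and 8200 in the control and with shRNA 1 and shRNA 2, while Psme3 and Psme4 stand higher in the GIV-labelled libraries than in the control.

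Because each immune subunit replaces a named constitutive one, their ratio within a library was taken. A scaling factor common to all genes of a library does not change it, whereas a factor particular to a gene would. The Psmb10 to Psmb7 ratio was 74.4% of the control's ratio with shRNA 1 and 74.5% with shRNA 2, nearly the same in both. For Psmb9 to Psmb6 it was 90.5% and 74.9%. For Psmb8 to Psmb5 it was 98.2% and 77.2%, so that with shRNA 1 both genes of the pair lay below the control to nearly the same degree. All 6 of these ratios were below the control's. On the log2 scale the mean differences were -0.43, -0.28 and -0.20 in that order, with an SD between the libraries of 0.0019, 0.19 and 0.25. With 2 libraries against 1, an exact two-sided permutation test cannot go below p = 0.33, so no test of a ratio was made. The Psmb10 to Psmb7 difference moved to -0.25 with the trend on length and GC content removed. Nek6, with 2149, 1411 and 1854 normalized counts, overlaps Psmb7 on the opposite strand.

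Divided by the length of each gene's longest annotated transcript, the 3 immune subunits made up 46.6% of the summed values of the 6 catalytic beta genes in the control. The share was 43.0% with shRNA 1 and 40.1% with shRNA 2. With the median coding transcript length it was 54.7%, 51.0% and 47.4%, so the level of the share depends on the length used, while the order of libraries was the same. This share was added after the values were seen. Set against the median difference of the 14 alpha and constitutive beta genes in the same library, Psmb8 lay 0.26 lower with shRNA 1 and 0.52 lower with shRNA 2 on the log2 scale. For Psmb9 the distances were 0.22 and 0.51, and for Psmb10 they were 0.34 and 0.41.

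**Figure D3:**
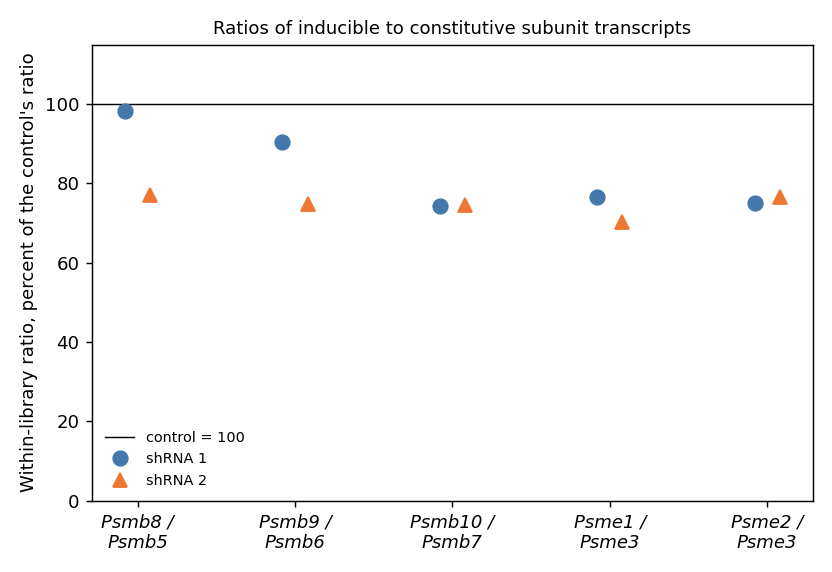
Within-library ratio of each immune beta transcript to that of the constitutive subunit it replaces, and of Psme1 or Psme2 to Psme3. Each is a percent of the same ratio in the control (line at 100), for shRNA 1 (circles) and shRNA 2 (triangles), 1 library per symbol. All symbols lie below 100, from 70.2 for Psme1 to Psme3 with shRNA 2 to 98.2 for Psmb8 to Psmb5 with shRNA 1.

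The remaining constitutive beta subunits, which carry no cutting site, were lower in both GIV-labelled libraries by small amounts. Psmb1 had 8124 normalized counts in the control, 7447 with shRNA 1 and 6773 with shRNA 2, a difference of -0.19 (SE 0.13). Psmb4 had 13606, 11747 and 11984, a difference of -0.20 (SE 0.12). Psmb2 was nearly level, with 6005, 5981 and 5948, and Psmb3 had 5772, 5364 and 5282. In all, 7 of 7 constitutive beta genes were lower in both, beside 35.2% of all tested features. Their median was -0.19, with no adjusted p under 0.73 in limma. That median shrank to -0.10 with the trend on transcript length and GC content removed. The sign of Psmb2 turned under that setting and with equal column totals.

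Alpha ring genes, whose products form the gate and the docking surface for caps, held no common direction. Of the 7, 3 were lower in both libraries and 1 was higher in both, beside 35.2% and 34.9% of all tested features. Another 3 were not on one side, and the median of the 7 was -0.05. Psma7 lay lowest, with 10183 normalized counts in the control, 9109 with shRNA 1 and 9265 with shRNA 2, a difference of -0.15 (SE 0.12) that came to 0.0018 with the trend on length and GC content removed. Psma5 had 18878, 17414 and 17300, and Psma1 had 11743, 10912 and 11110. Psma6 lay highest, with 22589, 25444 and 23957, a difference of 0.13 (SE 0.13). The others were within 0.05 of the control on average, with 9990, 10269 and 9960 for Psma2, 10630, 11213 and 10250 for Psma3, and 13565, 13630 and 12675 for Psma4. Per kilobase of the longest transcript, levels in the control ran from 3432 for Psma2 to 21678 for Psma6, and Psma6 had the highest level of all 38 members in every library. A gene of the same strand, AW209491, overlaps Psma2 and had 446, 585 and 515, so part of the Psma2 value is uncertain.

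The base ATPases, which unfold substrates and thread them into the barrel, included the member that lay highest above the control. Psmc3 had 7000 normalized counts in the control, 8939 with shRNA 1 and 7661 with shRNA 2. Both GIV-labelled libraries were above the control, at a mean difference of 0.24 (SE 0.15; limma adjusted p = 0.80). Psmc6 had 8404, 9679 and 8544, a difference of 0.11 (SE 0.14), and Psmc1 had 11776, 12867 and 12161, a difference of 0.09 (SE 0.12). Psmc4 was the 1 ATPase lower in both libraries, with 7262, 6672 and 6573, a difference of -0.13 (SE 0.12). Psmc2 (10226, 10449 and 9590) and Psmc5 (8433, 8459 and 7875) were lower with shRNA 2 only. The 6 ATPases thus had 3 members higher in both and 1 lower in both, beside 34.9% and 35.2% of all tested features. The median of the 6 was 0.03. Slc39a13 overlaps Psmc3 on the opposite strand, with 1143, 1244 and 991.

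Among the 11 regulatory non-ATPases, 5 were lower in both libraries and 2 were higher in both, beside 35.2% and 34.9% of all tested features. Another 4 were not on one side, and the median of the 11 was -0.02. Psmd1 and Psmd2, the large scaffolds of the base, were the 2 that stood higher. Psmd2 had 19230 normalized counts in the control, 20555 with shRNA 1 and 21969 with shRNA 2, a difference of 0.14 (SE 0.13). Psmd1 had 16361, 17442 and 16504, a difference of 0.05 (SE 0.13). Psmd3, a lid subunit, lay lowest of the cap, with 11637, 9814 and 9884. Its GIV-labelled libraries were nearly equal, at a difference of -0.24 (SE 0.12; limma adjusted p = 0.75). The ubiquitin receptor Psmd4 had 9166, 8798 and 8230, a difference of -0.11 (SE 0.13). Psmd14, the enzyme that removes ubiquitin chains at the lid, had 8512, 9138 and 8374, and its partner Psmd7 had 11065, 10972 and 10208. The other lid subunits, Psmd6, Psmd8, Psmd11, Psmd12 and Psmd13, had mean differences from -0.11 to 0.03. A pseudogene of the same strand, Gm15542, lies within Psmd13 and had 9928, 10486 and 9631 against 5515, 5186 and 5069 for Psmd13, so the value of Psmd13 is uncertain.

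The activator subunits lay on both sides of the control. Psme1 had 14699 normalized counts in the control, 13505 with shRNA 1 and 11143 with shRNA 2, a difference of -0.26 (SE 0.17; limma adjusted p = 0.80). Psme2, its partner in the interferon-induced activator, had 15971, 14380 and 13200, a difference of -0.21 (SE 0.13). Both were lower in both GIV-labelled libraries, with the lower value in the library labelled shRNA 2. With the trend on length and GC content removed, Psme1 with shRNA 1 lay at 0.0075, no longer below the control, and Psme2 with shRNA 1 at -0.03. Psme3, which forms a nuclear activator of its own, had 9996, 11991 and 10793, a difference of 0.19 (SE 0.14). Psme4, a large single-chain activator known for histone breakdown in the testis, had 5665, 7219 and 5826, a difference of 0.19 (SE 0.18). Both were above the control in both libraries, and for Psme4 the library labelled shRNA 2 was close to it, at 0.04 on the log2 scale. Under the same setting the Psme4 difference was 0.06, and the library labelled shRNA 2 lay below the control at -0.08.

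Within a library, the Psme1 to Psme3 ratio was 76.6% of the control's with shRNA 1 and 70.2% with shRNA 2, and the Psme2 to Psme3 ratio was 75.1% and 76.5%. Part of each shortfall came from Psme3, which lay above the control by 0.26 with shRNA 1 and 0.11 with shRNA 2 on the log2 scale. With the trend on length and GC content removed, the mean log2 ratio moved from -0.45 to -0.35 for Psme1 to Psme3. For Psme2 to Psme3 it moved from -0.40 to -0.30. These ratios were added after the values were seen. Psme1 and Psme2 lie on chromosome 14, 5911 bases apart, from 55578123 to 55581529 and from 55587441 to 55591113. Psme2b, a close copy of Psme2, had 743, 793 and 674 normalized counts, so reads could be shared between them. Copies named as pseudogenes of Psmb5, Psmb6 and Psmb7 had at most 6.77 in any library.

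On the authors' scaling, the libraries labelled GIV-depleted also differed from each other in most members. In 32 of 38 members the value with shRNA 2 was below that with shRNA 1, beside 50.5% of all tested features and 57.4% of those with a mean of at least 1000. Median differences from the control over the members were -0.02 with shRNA 1 and -0.10 with shRNA 2. All 6 ATPases, all 4 activator subunits and all 3 immune beta genes were lower with shRNA 2 than with shRNA 1. Library totals differed, at 49756670 with shRNA 1 and 47349097 with shRNA 2, so these counts depend on how the libraries are scaled. No test is possible with 1 library for each shRNA. The 38 members together took 0.816% of the control's total, 0.795% with shRNA 1 and 0.789% with shRNA 2, and the immune beta genes took 0.0532%, 0.0401% and 0.0365%. Shares of other groups went either way from shRNA 1 to shRNA 2. Those of the alpha ring (0.197% and 0.200%), constitutive beta ring (0.103% and 0.106%) and regulatory non-ATPases (0.246% and 0.249%) were higher with shRNA 2. Those of the base ATPases (0.115% and 0.111%) and activators (0.0947% and 0.0865%) were lower.

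Base composition moved with the differences of the members. Across the 38 genes, Spearman's correlation of the mean difference with the GC content of the longest transcript was -0.62, and it was -0.56 over the 35 members without the immune beta genes. The genes share libraries and are not independent replicates. The immune beta genes had GC contents from 52.5% to 56.5%, toward the upper end of the members' range of 37.0% to 57.4%. With a trend on length and GC content over 11611 protein-coding features removed, they were still the 3 lowest members, at -0.43 for Psmb8, -0.41 for Psmb9 and -0.34 for Psmb10. Psmb5 then lay at -0.12, Psme1 at -0.14 and Psme2 at -0.10. Of the 38 members, 16 were then lower in both libraries. Psmc3, with a GC content of 55.1%, went the other way and lay at 0.35. After that removal the correlation with GC content was still -0.39 over the 38 members and -0.28 over the 35, so the members' differences kept part of their relation to base composition.

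**Figure D4:**
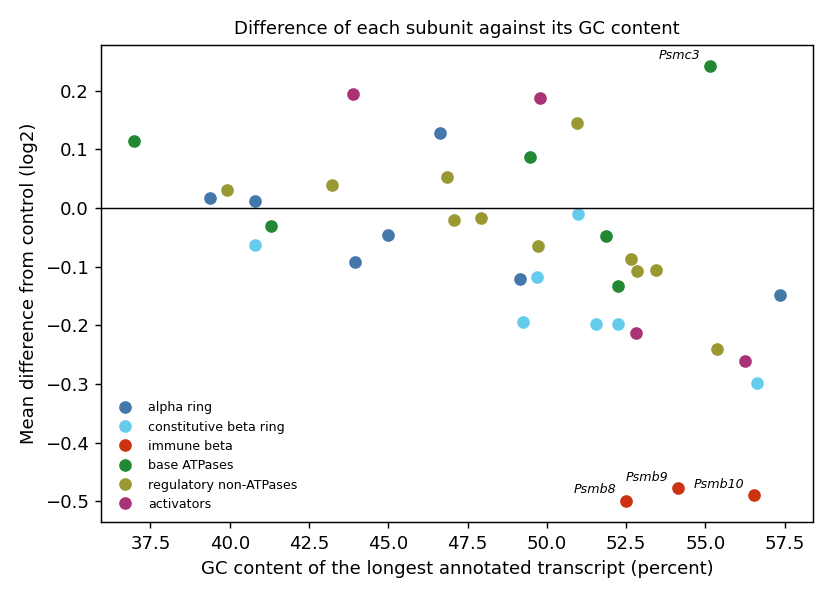
Mean log2 difference of both GIV-labelled libraries from the control against the GC content of each gene's longest annotated transcript, 1 point per member, coloured by group. The 3 immune beta genes lie near -0.5 at GC contents from 52.5% to 56.5%, below other members of like GC content, and Psmc3 lies highest at 0.24.

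Other genes of the pathway were taken from lists chosen by function. Of 12 other proteasome subunits and associated proteins, 3 were lower and 5 higher in both libraries, with a median of 0.05. Over all tested features 35.2% were lower and 34.9% higher in both, the background for each list of this paragraph. Of 6 assembly factors 2 were lower and 3 higher in both, with a median of -0.03, and a seventh, Paaf1, was not analysed here. Psmg4, a chaperone of alpha ring assembly, had 790 normalized counts in the control, 640 with shRNA 1 and 531 with shRNA 2, a difference of -0.44 (SE 0.22). Psmg3 had 1369, 1162 and 1232, and Psmg1 had 1222, 1005 and 1259. Of 9 ubiquitin genes and shuttle receptors, 2 were lower and 3 higher in both, with a median of -0.01. None of these genes passed in limma, the lowest adjusted p among them being 0.75.

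NRF1, encoded by Nfe2l1, is the factor known for raising proteasome genes when proteasome activity is short, and MAF proteins are its partners on DNA. Nfe2l1 had 10078 normalized counts in the control, 12363 with shRNA 1 and 12462 with shRNA 2. Its GIV-labelled libraries were nearly equal and above the control, at 0.30 (SE 0.12; limma adjusted p = 0.73). Mafk had 5267, 4156 and 4133, a difference of -0.35 (SE 0.12), whereas Maff had 208, 277 and 349, a difference of 0.58 (SE 0.27). Over the 8 genes of this list 3 were lower and 3 higher in both, beside 35.2% and 34.9% of all tested features. The median of the 8 was 0.01.

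Regulators through which interferon acts on immune subunit genes were mostly below the control, at a median of -0.23. In both libraries 5 of the 6 were lower, beside 35.2% of all tested features, while Irf8 was higher. Irf1, an interferon-responsive transcription factor, had 5652 normalized counts in the control, 3925 with shRNA 1 and 3718 with shRNA 2. Its difference was -0.56 (SE 0.13; limma adjusted p = 0.52). Stat2 had 28794, 26026 and 21427, and Irf2 had 4926, 4219 and 4104. Of 10 genes of class I peptide loading, 5 were lower and 4 higher in both libraries, beside 35.2% and 34.9% of all tested features. Their median was -0.12. Beside Tap1, the class I heavy chains H2-K1 (33614, 27781 and 22669) and H2-D1 (90580, 76800 and 59703) had the largest differences. For all 6 regulators and all 10 loading genes, as for the immune beta genes, the value with shRNA 2 was below that with shRNA 1. The same held for 32 of the 38 members, for 50.5% of all tested features and for 57.4% of those with a mean of at least 1000. These counts rest on the authors' scaling of the libraries.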

How the data were processed

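Stranded mRNA libraries of 3 RAW 264.7 cultures were compared, 2 labelled GIV-depleted (1 library for each shRNA) and 1 control. The authors deposited normalized counts per gene, a signal with no negative values. The submitters' processing notes list Salmon, DESeq, DESeq2 and the build GRCm38, with neither versions nor roles. No step that the authors took beyond this is given in the sources used here, and since the values are not whole reads a count model was not used.

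Identifiers were matched by Ensembl gene ID, and positions, lengths and GC content came from GENCODE M21 (GRCm38). Symbols were found for 54097 features, while 234 had none. Features with a mean of at least 10, 13877 in all, were fitted across all genes with limma 3.58.1 in R 4.3.3 (lmFit, eBayes with a trend) on log2(value + 1), two-sided, with Benjamini-Hochberg adjustment. The fit has 1 residual degree of freedom, from the pair of GIV-labelled libraries, and was tested on simulated data. Tables were made with Python 3.11.15 and pandas 2.3.3.

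Members are listed by symbol. Members, lists and tests were chosen with earlier results of these data known. Of the assembly, NRF1, interferon regulator and peptide loading lists, the 3 genes with the largest absolute mean difference are named. Alternatives covered the pseudocount (0.1 and 10), the filter, library scaling, quantile normalization, the variance trend, a spline trend on length and GC content, and leaving out each GIV-labelled library. The result of 1 further motif search is not reported here.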

Additional observations from a re-analysis of the deposited data

How the results depend on the processing

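No member passed under any alternative. Over all features the count was 0, and it was 1 with equal column totals and 1 with the median ratio to the control set to 1, in each case Gm10443. With 1 control and 1 GIV-labelled library no fit had residual degrees of freedom, so limma was not run without a replicate.

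The count of members lower in both libraries ran from 16 (length and GC trend removed) to 25 (quantile normalization), with 21 as reported. Leaving out 1 library left 8 members above the control without shRNA 1 and 17 without shRNA 2, where 8 were higher in both, and 30 or 21 below it. The constitutive beta median of -0.19 became -0.10 with the length and GC trend removed, and without 1 library ranged from -0.18 to -0.13. The Psmb10 to Psmb7 log2 ratio of -0.43 became -0.25 with that trend removed and -0.43 with quantile normalization. Signs turned with the trend removed for Psma2 (-0.0069), Psma3 (-0.014), Psma7 (0.0018, from -0.15), Psmb2 (0.092, from -0.01), Psmc5 (0.033), Psmd6 (0.013) and Psmd12 (0.00085), and with equal column totals for Psmb2 (0.0064). The cause was not tested. Psmb8, Psmb9 and Psmb10 had negative differences under all alternatives run. No paired analysis was possible because the control has 1 library.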
